A study of Mus musculus with 2 samples.

Results

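Killer lectin receptors and the proteases of cytotoxic granules were read out in whole mouse lung given interleukin 17B. The members were the rows of the deposited table whose symbol begins with Klra to Klrk or with Gzm, and Prf1, Ncr1, Nkg7, Cd160, Cd244, Fcrl5, Eomes and Tbx21. This gave 43 of 17943 genes, of which 37 had a mean of at least 0.5 FPKM and are called measured here. FPKM is a fragment count scaled to transcript length and library size, so levels can be compared between genes of different length.

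RNA came from the lungs of wild type C57BL/6 mice, an inbred laboratory strain, aged 6 to 8 weeks and dosed intranasally for 3 days with an adenovirus, a vehicle that carries a gene into cells. In the Adv-IL-17B group the virus carried the cytokine interleukin 17B, and in the Adv-EV group it was the empty vector. All mice of both groups therefore received adenovirus, and no lung without virus was part of the comparison. The labels give 1 library per group while the series text speaks of triplicates. How many mice went into a library is not stated, and no difference below has replicates behind it or a test. The libraries held about 5520000 (Adv-IL-17B) and 5500000 (Adv-EV) fragments, an estimate from the steps in their low values. Fragments added up over genes exceed these totals, so all fragment numbers are approximate. Intervals are exact 95% Clopper-Pearson intervals on them and cover counting error only.

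Natural killer (NK) cells and cytotoxic T cells kill target cells by releasing granules. Perforin opens the target membrane and granzymes, a family of serine proteases, enter and cleave proteins inside. Whether an NK cell kills is set by a balance of receptors. Many of them are C-type lectin-like proteins of the Klr families, encoded side by side in the NK gene complex, where inhibitory members recognise MHC class I and activating members recognise stress-induced or viral ligands. In lung these cells circulate through the capillary bed and belong to the early defence against viruses.

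The killer genes formed a low but readable layer of the lung transcriptome. Summed over all 43 genes, the level was 153.7 FPKM in the Adv-IL-17B library and 114.1 FPKM in the Adv-EV library, a ratio of 1.35. The 3 most abundant genes, Gzma, Nkg7 and Gzmb, held 45.4% of that sum over both libraries. The ratio was above equality for 26 of the 43 genes and below it for 17. Among all 17943 genes 47.6% lay above equality and 50.4% below. Granule genes, Ncr1, Cd160, Cd244, Fcrl5 and both lineage factors all had higher values in Adv-IL-17B. The Klr receptors were mixed, with a sum of 64.8 FPKM in Adv-IL-17B and 51.2 FPKM in Adv-EV and over the 25 measured genes the median log2 ratio was -0.01. Fewer cells of a type and less RNA per cell cannot be told apart in whole tissue, nor can more cells and more RNA per cell.

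**Figure D1:**
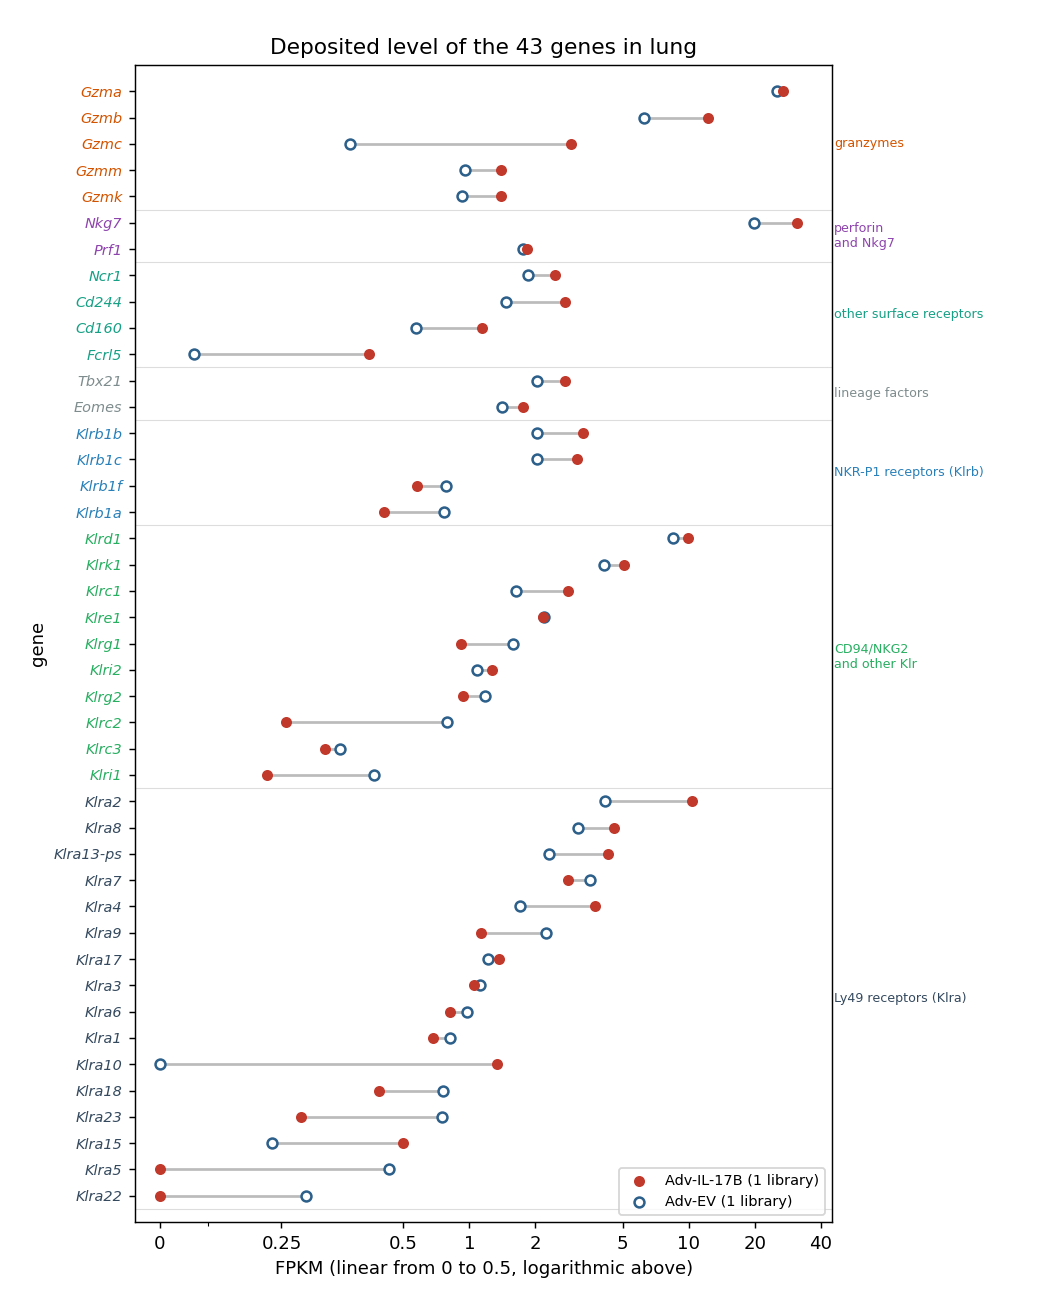
Level of each of the 43 genes in FPKM (horizontal axis, linear up to 0.5 and logarithmic above) in the Adv-IL-17B library (filled red) and the Adv-EV library (open blue), 1 library each, grouped by role. Gzma and Nkg7 stand above 19 FPKM in both libraries, and Klra10, Klra5 and Klra22 are listed at 0 in one of them.

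Log2 ratios were taken on FPKM + 0.1, Adv-IL-17B over Adv-EV, and a gene was counted as higher or lower when it passed 2-fold. By this rule of size 4 measured members were higher and 2 lower. Among all 15056 measured genes 3.95% were higher and 2.68% lower. At 1.5-fold 11 members were higher and 6 lower, against 9.44% and 8.2% of all measured genes. A ratio above equality was found for 24 of the 37 measured members and for 48.6% of all measured genes. Of the 37 measured members, 6 reached the limit of 0.5 FPKM in only 1 library and passed the filter through it (Gzmc, Klra10, Klra18, Klra23, Klrb1a and Klrc2). Both members counted as lower, Klra23 and Klrc2, were among these 6, as were the higher genes Gzmc and Klra10. The members were shallow. Of 39 genes with a known transcript length, 16 rested on under 20 fragments over both libraries, and the median was 29.2 fragments. Of the 23 measured members with at least 20 fragments, 2 were higher (Klra2 and Klra4) and 0 lower, and 19 had a ratio above equality. Among the 14061 measured genes of that depth 2.74% were higher, 1.47% lower and 48.7% above equality.

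The upstream sequences of 3 granzyme genes are shown first, since Gzmb and Gzmc stood apart between the libraries and Gzma hardly did. Each line gives the 250 bases before a transcription start from RefSeq on GRCm38.p6, the assembly of mm10, 5′ to 3′ on the gene's strand. Capitals mark matches to TGTGGT, the core that RUNX factors bind, on either strand. TTCNNNGAA, the spacing of a STAT dimer site, and GGTGTNA, a T-box site of the kind T-bet and Eomesodermin bind, were searched in the same way and had no match in these 3 windows. The motifs were chosen after the expression values were known.
Gzmb, chr14:56262335-56262584, minus strand: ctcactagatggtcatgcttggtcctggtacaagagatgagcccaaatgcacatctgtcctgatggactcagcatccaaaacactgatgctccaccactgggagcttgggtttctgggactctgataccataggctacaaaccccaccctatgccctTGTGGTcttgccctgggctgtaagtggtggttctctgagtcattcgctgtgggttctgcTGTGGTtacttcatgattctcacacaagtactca
Gzmc, chr14:56234658-56234907, minus strand: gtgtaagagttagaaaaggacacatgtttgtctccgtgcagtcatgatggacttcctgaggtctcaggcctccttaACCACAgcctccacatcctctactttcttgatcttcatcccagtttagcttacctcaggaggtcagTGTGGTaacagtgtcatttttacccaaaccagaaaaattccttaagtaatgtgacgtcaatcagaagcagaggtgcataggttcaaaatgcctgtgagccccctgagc
Gzma, chr13:113100982-113101231, minus strand: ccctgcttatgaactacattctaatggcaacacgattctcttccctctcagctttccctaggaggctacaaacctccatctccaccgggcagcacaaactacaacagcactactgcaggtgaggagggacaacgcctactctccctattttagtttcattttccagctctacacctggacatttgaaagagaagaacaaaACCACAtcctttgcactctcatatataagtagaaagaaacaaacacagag

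The TGTGGT core occurred at 93 and 34 bases before the start in Gzmb, at 174 and 108 in Gzmc and at 50 in Gzma. It was also in a window of Gzmm (ratio 1.45) and not in that of Gzmk (ratio 1.51). A link between the core and the ratios was not tested. The window of Nkg7 held all 3 motifs, and that of Klra2 held a single TTCNNNGAA and no other match. Over the 35 members with a RefSeq promoter, 17 (48.6%) had TGTGGT in this window, against 15.9% of all 27025 genes. GGTGTNA was in 7 members (20%) against 9.84% of all genes, and TTCNNNGAA in 6 (17.1%) against 8.13%. Promoters of copied genes share their letters, and a gene with several start sites was counted when any of its windows matched. A match is a string of letters and was not tested for binding.

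Among the granule genes, Gzmb, Gzmc and Nkg7 had intervals above 1, as did 17.6% of all measured genes with a length. Gzmb, whose protease cleaves after aspartate and activates caspases, lies on chromosome 14 from 56258836 to 56262334 (RefSeq NM_013542). It stood at 12.24 FPKM in Adv-IL-17B and 6.26 FPKM in Adv-EV, on about 97 and 49 fragments. The ratio was 1.96 (interval 1.39 to 2.85), and the log2 ratio of 0.96 lay just inside the 2-fold limit. Gzmc, a granzyme of the same cluster in rodents, spans 56231397 to 56241647 in the RefSeq table, and the window printed above lies before a start inside that span. It stood at 2.92 FPKM in Adv-IL-17B and 0.39 FPKM in Adv-EV, or roughly 14 and 2 fragments. It was 7.49-fold higher, with an interval from 1.61 to 63.5. Its transcript of 894 bp shared 4.14% of its 50-base words with other genes, chiefly Gzme, which is not among the rows of the table analysed here. Gzmb shared none.

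Gzma encodes the most abundant granzyme here, a tryptase of NK and cytotoxic T cells, and stood at 26.78 FPKM in Adv-IL-17B and 25.38 FPKM in Adv-EV. Its ratio of 1.06 had an interval from 0.82 to 1.36, so equality and any difference within those bounds could not be separated at this depth. The upper bound of Gzma lay just under the lower bound of Gzmb, and the difference between their ratios was not tested. Gzmk, a tryptase gene next to Gzma on chromosome 13, stood at 1.4 FPKM in Adv-IL-17B and 0.93 FPKM in Adv-EV on about 8 and 5 fragments. Gzmm, whose protease cleaves after methionine and leucine, stood at 1.39 FPKM in Adv-IL-17B and 0.96 FPKM in Adv-EV on about 10 and 7 fragments. The intervals of both genes (0.462 to 6.22 for Gzmk and 0.491 to 4.42 for Gzmm) included equal levels and also the ratio of Gzmb.

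Nkg7 encodes a membrane protein of cytotoxic granules that takes part in their release. Its level was 31.06 FPKM in Adv-IL-17B and 19.77 FPKM in Adv-EV, on roughly 151 and 96 fragments, a ratio of 1.57 (interval 1.21 to 2.05). Prf1, which encodes perforin, stood at 1.83 FPKM in Adv-IL-17B and 1.75 FPKM in Adv-EV (ratio 1.05, interval 0.571 to 1.9). Among granule genes the libraries thus stood apart for Gzmb, Gzmc and Nkg7 by more than counting error, though Gzmc passed the filter only through Adv-IL-17B. Of all 14977 measured genes with a length, 17.6% likewise had an interval above 1 and 15.9% had one below 1. For Gzma and Prf1 the ratios were 1.06 and 1.05. The 7 granule genes together summed to 77.6 FPKM in Adv-IL-17B and 55.4 FPKM in Adv-EV.

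Genes that place granules and guard against their contents were inside the 2-fold limits apart from a single gene. Of the 16 genes on the list of granule storage, exocytosis and inhibition, 1 was higher, 0 were lower and the median log2 ratio was 0.21, where the median of all measured genes was -0.01. Srgn, which encodes the granule proteoglycan serglycin and is also abundant in myeloid cells, stood at 225.16 FPKM in Adv-IL-17B and 144.5 FPKM in Adv-EV. Ctsc, whose protease cathepsin C activates granzymes by trimming them, stood at 100.37 FPKM in Adv-IL-17B and 70.72 FPKM in Adv-EV. Lamp1, a lysosome membrane gene expressed in nearly all cells and the most abundant of the list, was close to equal, at 425.18 FPKM in Adv-IL-17B and 408.61 FPKM in Adv-EV. Serpinb9, the inhibitor of granzyme B, stood at 66.86 FPKM in Adv-IL-17B and 54.07 FPKM in Adv-EV. The higher gene was Serpinb9b, a relative of Serpinb9, at 1.04 FPKM in Adv-IL-17B and 0.38 FPKM in Adv-EV on about 19 and 7 fragments.

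The NK cell receptor gene Ncr1 and the lineage factor genes Eomes and Tbx21 had ratios between 1.24 and 1.34. Ncr1, which encodes the activating receptor NKp46, stood at 2.47 FPKM in Adv-IL-17B and 1.86 FPKM in Adv-EV (ratio 1.33, interval 0.649 to 2.8). Eomes, a T-box factor required by mature NK cells, stood at 1.75 FPKM in Adv-IL-17B and 1.41 FPKM in Adv-EV. Tbx21, which encodes T-bet, the T-box factor shared by NK, innate and Th1 cells, stood at 2.73 FPKM in Adv-IL-17B and 2.04 FPKM in Adv-EV. Each of the 3 had the greater value in Adv-IL-17B, and all 3 intervals included equal levels. All 3 also included 1.96, the ratio of Gzmb. The 6 NK markers Ncr1, Klrb1c, Klrd1, Eomes, Gzma and Prf1 were all present in both libraries and summed to 45.9 FPKM in Adv-IL-17B and 40.95 FPKM in Adv-EV, a ratio of 1.12.

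Cd244, which encodes 2B4, a SLAM family receptor for CD48 that is known from NK cells and also from other leukocytes, stood at 2.74 FPKM in Adv-IL-17B and 1.47 FPKM in Adv-EV. Its ratio of 1.86 had an interval from 1.2 to 3.06. Cd48, the gene of its ligand, stood at 29.46 FPKM in Adv-IL-17B and 17.25 FPKM in Adv-EV. Cd160, which encodes a lipid-anchored receptor for HVEM, stood at 1.14 FPKM in Adv-IL-17B and 0.57 FPKM in Adv-EV on about 16 and 8 fragments, and its interval from 0.808 to 5.4 included equal levels. The intervals of both genes overlap those of Ncr1 and Tbx21. The HVEM gene Tnfrsf14 itself was at 8.63 FPKM in Adv-IL-17B and 7.62 FPKM in Adv-EV. Fcrl5, a Fc receptor-like gene known mainly from B cells, was under the filter at 0.43 FPKM in Adv-IL-17B and 0.07 FPKM in Adv-EV, about 6 fragments and 1. The 9 B cell markers had 0 genes past 2-fold and a median log2 ratio of 0.29, with Cd79a at 21.97 FPKM in Adv-IL-17B and 22.16 FPKM in Adv-EV.

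The killer lectin receptors are ordered here by family. On mm10, 26 of the members lie on chromosome 6. Of these, 24 lie between 128609227, the start of Klrb1a, and 131247716, the end of Klra2, and Klrg1 and Klrg2 lie outside that stretch.

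**Figure D2:**
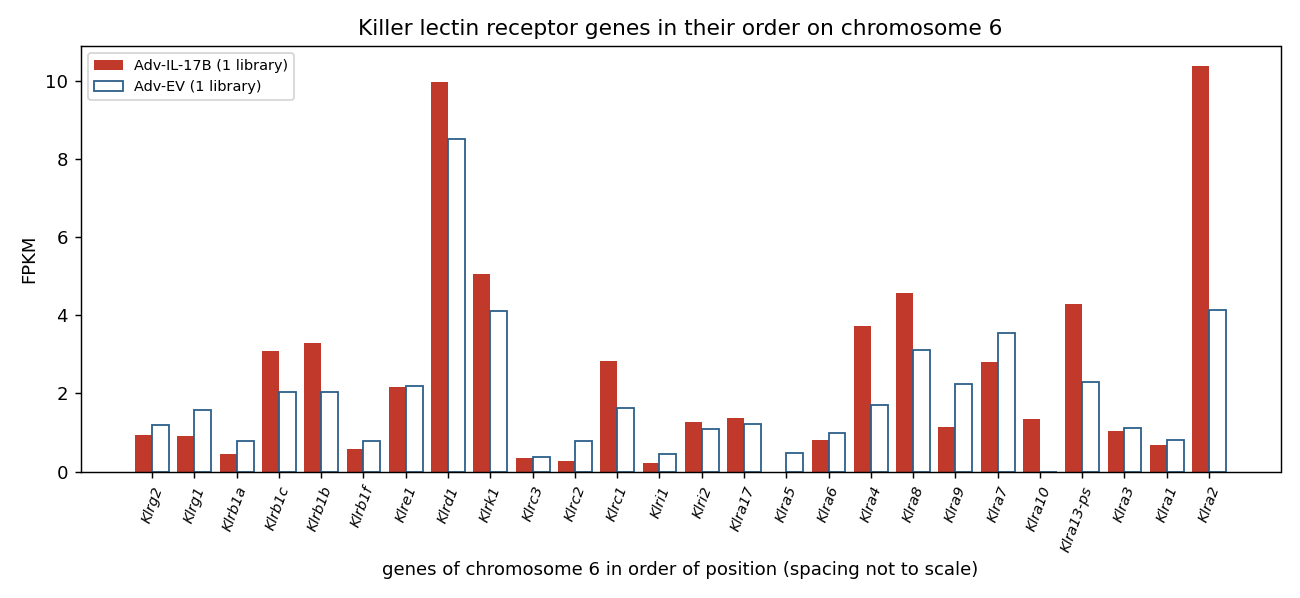
Level in FPKM (vertical axis) of the 26 members on chromosome 6 in order of position from left to right, with the Adv-IL-17B library as red bars and the Adv-EV library as open bars, 1 library each. Klra2 at the right end and Klrd1 left of the centre are the tallest, and genes with a taller red bar stand next to genes with a taller open bar along the whole stretch.

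The genes of CD94 and its partner chains come first. Klrd1, which encodes CD94, the partner chain of the NKG2 receptors, stood at 9.97 FPKM in Adv-IL-17B and 8.51 FPKM in Adv-EV (ratio 1.17, interval 0.757 to 1.81). Klrc1, which encodes the inhibitory partner NKG2A, stood at 2.83 FPKM in Adv-IL-17B and 1.64 FPKM in Adv-EV (ratio 1.73, interval 0.934 to 3.27). Klrc2, which encodes the activating partner NKG2C, pointed the other way, at 0.26 FPKM in Adv-IL-17B and 0.79 FPKM in Adv-EV, but on about 1 and 3 fragments. Klrc3, the NKG2E gene, was under the filter at 0.34 FPKM in Adv-IL-17B and 0.37 FPKM in Adv-EV. The Klrc transcripts share between 40.3% and 41.5% of their 50-base words with one another, so reads may have been split between them. H2-T23, which encodes Qa-1, the ligand of these receptors, was at 426.61 FPKM in Adv-IL-17B and 369.38 FPKM in Adv-EV. The most abundant ligand gene was the class I gene H2-D1, at 2852.22 FPKM in Adv-IL-17B and 2325.67 FPKM in Adv-EV.

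Klrk1, which encodes the activating receptor NKG2D, shares no 50-base word with another gene. It stood at 5.06 FPKM in Adv-IL-17B and 4.1 FPKM in Adv-EV (ratio 1.23, interval 0.896 to 1.71). The NKG2D ligand gene Raet1e was among the few ligand genes with a large ratio, at 2.1 FPKM in Adv-IL-17B and 0.51 FPKM in Adv-EV on about 15 and 4 fragments. It was the only one of 11 measured ligand genes past 2-fold, and 0 were lower. The Raet1 genes are near-identical copies, and Raet1d (0.88 FPKM in Adv-IL-17B, listed at 0 in Adv-EV) and Raet1a (listed at 0 in Adv-IL-17B, 0.4 FPKM in Adv-EV) were under the filter and had opposite directions. Ulbp1, the gene of the NKG2D ligand MULT1, stood at 0.79 FPKM in Adv-IL-17B and 0.5 FPKM in Adv-EV.

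The remaining Klr receptors outside the Klra and Klrb families were low. Klre1 encodes a chain that pairs with the products of Klri1 and Klri2, and stood at 2.17 FPKM in Adv-IL-17B and 2.18 FPKM in Adv-EV. Klri2, the activating partner, was at 1.27 FPKM in Adv-IL-17B and 1.08 FPKM in Adv-EV, and Klri1, the inhibitory partner, at 0.22 FPKM in Adv-IL-17B and 0.44 FPKM in Adv-EV on about 1 and 2 fragments. Klrg1, an inhibitory receptor of mature NK and effector T cells that binds cadherins, stood at 0.92 FPKM in Adv-IL-17B and 1.58 FPKM in Adv-EV (1.72-fold lower, with a ratio interval from 0.195 to 1.61). Its ligand gene Cdh1, which encodes E-cadherin, was at 110.06 FPKM in Adv-IL-17B and 114.95 FPKM in Adv-EV. Klrg2 stood at 0.94 FPKM in Adv-IL-17B and 1.18 FPKM in Adv-EV.

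NKR-P1 genes divided by level. Klrb1c, which encodes the activating receptor NK1.1, a standard marker of NK cells in C57BL/6 mice, stood at 3.08 FPKM in Adv-IL-17B and 2.04 FPKM in Adv-EV (ratio 1.51, interval 0.952 to 2.57). Klrb1b, which encodes an inhibitory receptor for Clr-b, stood at 3.28 FPKM in Adv-IL-17B and 2.03 FPKM in Adv-EV (ratio 1.62, interval 0.947 to 2.75). Clec2d, the Clr-b gene, was nearly equal at 67.28 FPKM in Adv-IL-17B and 69.71 FPKM in Adv-EV. The sparse genes Klrb1f, a receptor gene for Clr-g, at 0.58 FPKM in Adv-IL-17B and 0.78 FPKM in Adv-EV, and Klrb1a, at 0.46 FPKM in Adv-IL-17B and 0.77 FPKM in Adv-EV, had ratios below 1 on 3 to 7 fragments. All 4 intervals included equal levels, and Klrb1b, Klrb1c and Klrb1a share 29%, 18.1% and 11% of their 50-base words with other transcripts.

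**Figure D3:**
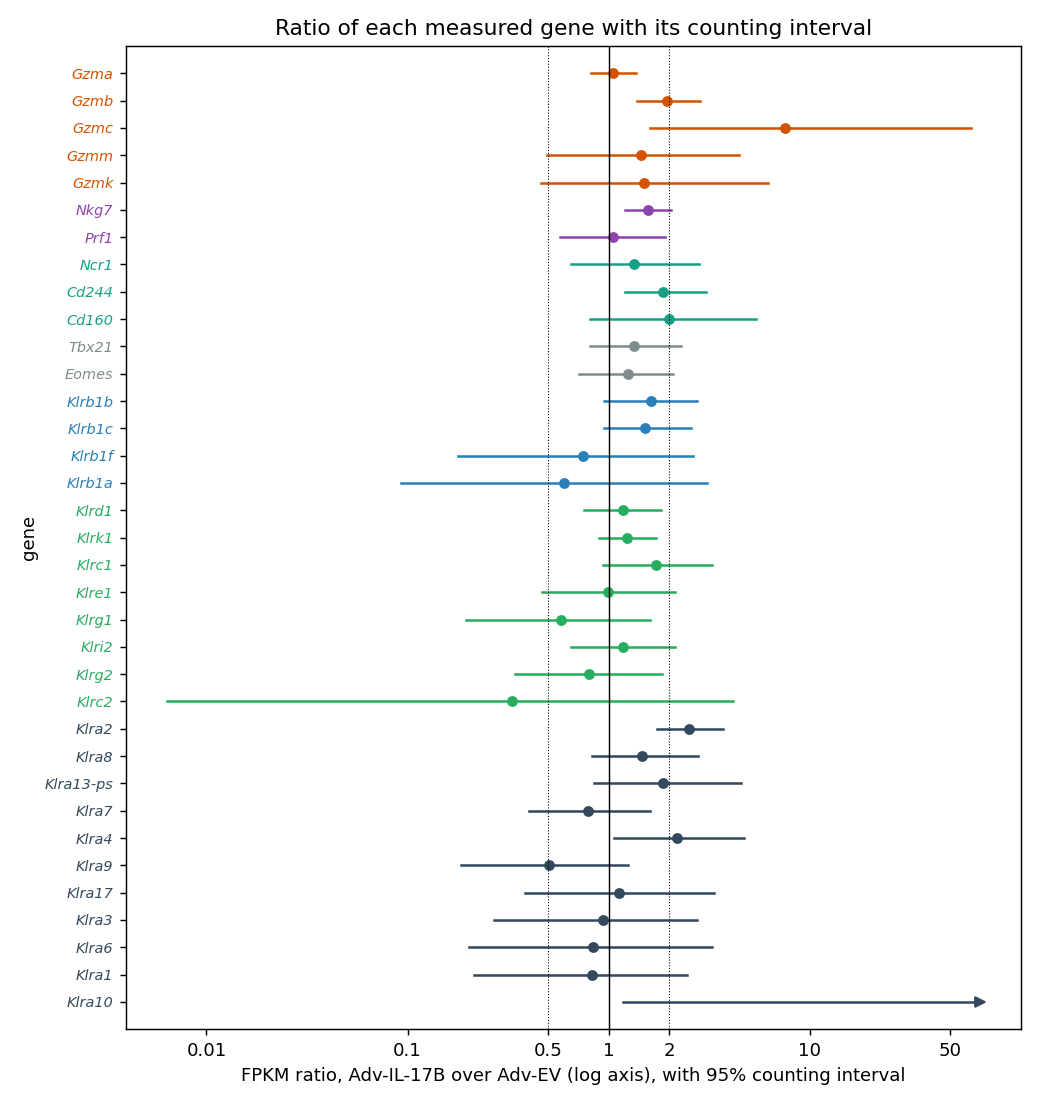
Ratio of FPKM, Adv-IL-17B over Adv-EV (horizontal axis, logarithmic), for the 35 measured members with a known transcript length, coloured by role, with exact 95% counting intervals as lines and dotted lines at 2-fold. The intervals of Gzmb, Gzmc, Nkg7, Cd244, Klra2, Klra4 and Klra10 lie above 1, and Klra10, listed at 0 in Adv-EV, has no point and no upper bound. Gzmc and Klra10 passed the filter only through Adv-IL-17B.

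Counting error alone was passed by 7 of the 35 measured members with a length, all higher in Adv-IL-17B. Among the 14977 measured genes with a length, 17.6% had such an interval above 1 and 15.9% had one below 1. A share of 7 in 35 therefore lay near the background for higher genes, and 0 of 35 lay below 1. Of the 7, Gzmc and Klra10 reached the limit of 0.5 FPKM only in Adv-IL-17B, so the filter itself favoured their direction.

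The Ly49 receptors, encoded by the Klra genes, bind MHC class I in mice and carry out the task that KIR receptors have in humans. Their log2 ratios ran from -1.12 to 3.85, where the upper end is Klra10, listed at 0 in Adv-EV, and the next is Klra2 at 1.31. The 16 genes summed to 33.4 FPKM in Adv-IL-17B and 23.7 FPKM in Adv-EV, and their median log2 ratio over 13 measured genes was -0.09. Klra2, which encodes Ly49B, a family member known from myeloid cells rather than NK cells, made much of the difference. It stood at 10.38 FPKM in Adv-IL-17B and 4.14 FPKM in Adv-EV, or roughly 103 and 41 fragments. Its level was 2.51-fold higher (interval 1.73 to 3.7). Its 50-base words occur in no other gene, and it sits apart from the other Klra genes at the end of the complex, from 131198970 to 131247716. Without Klra2 the sums of the Ly49 genes were 23.03 FPKM in Adv-IL-17B and 19.58 FPKM in Adv-EV, a ratio of 1.18.

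Most markers of myeloid cells were also higher in the library with more Klra2. Of 12 monocyte and macrophage markers 4 were higher (Ly6c2, Cd68, Fcgr1 and Itgam) and 1 lower (Marco). Their median log2 ratio was 0.67, with sums of 1670 FPKM in Adv-IL-17B and 985.7 FPKM in Adv-EV. Of 10 neutrophil markers 3 were higher (Csf3r, Mmp9 and Il1r2) and 0 lower. Their median was 0.76, with sums of 648.8 FPKM in Adv-IL-17B and 386.8 FPKM in Adv-EV. Camp and Ngp on the neutrophil list and Siglecf on the macrophage list had ratios below equality. Camp stood at 11.89 FPKM in Adv-IL-17B and 20.08 FPKM in Adv-EV (1.69-fold lower), with a ratio interval from 0.411 to 0.855. None of these 22 markers was at 0 in either library. The most abundant were C1qa, at 392.03 FPKM in Adv-IL-17B and 273.19 FPKM in Adv-EV, and S100a9, at 263.69 FPKM in Adv-IL-17B and 145.68 FPKM in Adv-EV. Itgam, the integrin chain CD11b of myeloid cells and of many NK cells, stood at 35.12 FPKM in Adv-IL-17B and 13.44 FPKM in Adv-EV. The part of these cells in the Klra2, Cd244 and Srgn values was not tested. Klra17, which encodes Ly49Q, a receptor of plasmacytoid dendritic and other myeloid cells, stood at 1.37 FPKM in Adv-IL-17B and 1.22 FPKM in Adv-EV on about 9 and 8 fragments.

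Both activating Ly49 receptors of the C57BL/6 strain had higher values in Adv-IL-17B. Klra4, which encodes Ly49D, stood at 3.73 FPKM in Adv-IL-17B and 1.71 FPKM in Adv-EV (2.18-fold higher, interval 1.06 to 4.71). Klra8, which encodes Ly49H, the receptor that detects cells infected with mouse cytomegalovirus, stood at 4.56 FPKM in Adv-IL-17B and 3.12 FPKM in Adv-EV (ratio 1.46, interval 0.824 to 2.79). Of the 50-base words of Klra8 33.1% occur in other genes, chiefly Klra14-ps, so its value may include reads of those genes. The pseudogene Klra13-ps stood at 4.3 FPKM in Adv-IL-17B and 2.3 FPKM in Adv-EV. It shares 8.63% of its words with Klra7, so its reads may come in part from that gene.

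The inhibitory Ly49 genes Klra7, Klra9, Klra3, Klra1 and Klra6 had values close to or below those of the empty vector. Klra2, Klra17 and Klra10, described apart, had higher values in Adv-IL-17B. A contrast between activating and inhibitory genes was not tested. Klra7, which encodes Ly49G, stood at 2.81 FPKM in Adv-IL-17B and 3.56 FPKM in Adv-EV. Klra9, which encodes Ly49I, was at 1.13 FPKM in Adv-IL-17B and 2.24 FPKM in Adv-EV (1.98-fold lower, with a ratio interval from 0.185 to 1.24), and Klra3, which encodes Ly49C, at 1.05 FPKM in Adv-IL-17B and 1.12 FPKM in Adv-EV. Klra1, the Ly49A gene, was at 0.68 FPKM in Adv-IL-17B and 0.82 FPKM in Adv-EV, and Klra6, the Ly49F gene, at 0.82 FPKM in Adv-IL-17B and 0.98 FPKM in Adv-EV. Each rested on 5 to 21 fragments in a library, and none of these 5 intervals left out equal levels. Klra5, the Ly49E gene, was listed at 0 in Adv-IL-17B and stood at 0.47 FPKM in Adv-EV on about 3 fragments. A 0 at its transcript length is compatible with as much as 0.475 FPKM, which 3 fragments would give.

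Klra10, the Ly49J gene, had the widest ratio on paper and little behind it. It was at 1.34 FPKM in Adv-IL-17B, from 6 estimated fragments, and listed at 0 in Adv-EV, where up to 0.662 FPKM could go unseen. With that floor in place of 0 its log2 ratio was 0.92 and it was no longer past 2-fold. Of its 50-base words 39.8% occur in other genes, mostly Klra9 and Klra3. The coding sequences of Klra10 and Klra9 are identical at 96.9% of 798 bases, and those of Klra10 and Klra3 at 96.2%. The 100 coding bases below, numbers 523 to 622 counted from the A of the start codon in GENCODE M21 transcripts, begin at the longest run that Klra10 and Klra9 share and were chosen as an alike stretch. Over the whole coding sequence Klra8 is identical to the other genes shown at 90.5% to 91.9% of bases. All lie on the minus strand of chromosome 6, and capitals mark the 5 positions at which the genes differ.
Klra10: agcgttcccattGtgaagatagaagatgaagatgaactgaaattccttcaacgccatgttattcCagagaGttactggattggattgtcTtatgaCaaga
Klra3: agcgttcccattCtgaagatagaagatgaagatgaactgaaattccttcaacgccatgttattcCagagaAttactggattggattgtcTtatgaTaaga
Klra9: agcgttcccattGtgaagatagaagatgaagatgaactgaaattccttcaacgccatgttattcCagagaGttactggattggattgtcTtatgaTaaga
Klra8: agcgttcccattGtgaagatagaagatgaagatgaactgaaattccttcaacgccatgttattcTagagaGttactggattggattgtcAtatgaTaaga

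In this stretch Klra10 and Klra9 differ at 1 base. A read that lies inside a shared run can be placed on either gene, and no source used here says how such reads were assigned. The gap between Klra10, higher in Adv-IL-17B, and Klra9, lower there, is therefore uncertain. Added up, Klra10, Klra9 and Klra3 stood at 3.52 FPKM in Adv-IL-17B and 3.36 FPKM in Adv-EV.

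The last 4 Ly49 rows named genes whose RefSeq accessions matched neither GENCODE M21 nor the RefSeq table of the GRCm38.p6 assembly, which represents C57BL/6J. The set of Ly49 genes is known to differ between mouse strains. Klra18 stood at 0.45 FPKM in Adv-IL-17B and 0.76 FPKM in Adv-EV, Klra23 at 0.29 FPKM in Adv-IL-17B and 0.75 FPKM in Adv-EV, and Klra15 at 0.5 FPKM in Adv-IL-17B and 0.23 FPKM in Adv-EV. Klra22 was listed at 0 in Adv-IL-17B and at 0.3 FPKM in Adv-EV. Together they summed to 1.24 FPKM in Adv-IL-17B and 2.04 FPKM in Adv-EV. They have no transcript length here, so neither fragments nor intervals could be given, and reads of related Ly49 genes may be counted in them.

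Genes of signalling and of cytokines around the receptors are given next. Of 17 adaptors and kinases, 3 were higher and 0 lower. The median log2 ratio was 0.61. The 3 were Fcer1g, the chain that carries signals of NKp46 and Fc receptors (436.69 FPKM in Adv-IL-17B and 180.43 FPKM in Adv-EV), the signalling gene Vav1 (33.86 FPKM in Adv-IL-17B and 13.7 FPKM in Adv-EV) and Lcp2, which encodes SLP-76 (19.26 FPKM in Adv-IL-17B and 7.84 FPKM in Adv-EV). Tyrobp, which encodes DAP12, the chain of Ly49D and Ly49H, stood at 383.04 FPKM in Adv-IL-17B and 204.22 FPKM in Adv-EV. Myeloid cells express these 4 genes strongly as well, and their marker values are those given beside Klra2. Zap70, a kinase of T and NK cells, was at 7.18 FPKM in Adv-IL-17B and 5.73 FPKM in Adv-EV, and Cd247, the zeta chain gene of the same cells, at 13.14 FPKM in Adv-IL-17B and 9.54 FPKM in Adv-EV.

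Cytokine genes that sustain NK cells were mostly higher by less than 2-fold. Il15, the gene of the cytokine on which NK cells depend, stood at 5.07 FPKM in Adv-IL-17B and 2.38 FPKM in Adv-EV (2.13-fold higher), and its receptor chain gene Il2rb at 13.89 FPKM in Adv-IL-17B and 9.64 FPKM in Adv-EV. Of the 15 genes on this list 3 were higher (Il15, Il18rap and Il12rb1) and 1 lower (Il12rb2). The median log2 ratio was 0.39. The chains of the IL-12 receptor had opposite directions. Il12rb1 stood at 2.17 FPKM in Adv-IL-17B and 0.75 FPKM in Adv-EV, and Il12rb2, the signalling chain, at 0.42 FPKM in Adv-IL-17B and 1.23 FPKM in Adv-EV on about 7 and 20 fragments. Il18rap, a chain of the IL-18 receptor, stood at 4.5 FPKM in Adv-IL-17B and 2.15 FPKM in Adv-EV. The most abundant of the list was Ifnar2, a chain of the type I interferon receptor, at 101.04 FPKM in Adv-IL-17B and 76.82 FPKM in Adv-EV.

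Among 22 other effector and surface genes of NK cells 7 were higher and 0 lower, where all measured genes gave 3.95% and 2.68%. The median log2 ratio was 0.55, with 14 ratios above equality and 7 below. Ratios below equality included those of Tigit (3.94 FPKM in Adv-IL-17B and 5.09 FPKM in Adv-EV), S1pr5 (1.14 and 1.57 FPKM) and Cd226 (0.79 and 1.42 FPKM). The intervals of Tigit, S1pr5 and Cd226 included equal levels. The counting interval lay above 1 for 11 and below 1 for 1, Itga1, an integrin gene that other lung cells also express. Of the 7 higher genes, those with the highest level were Ly6c2 (285.2 FPKM in Adv-IL-17B and 102.06 FPKM in Adv-EV), which also marks monocytes, and the chemokine genes Ccl5, Ccl3 and Ccl4. Myeloid cells also express Ccl3, Ccl4 and Slamf7, and the medians of the macrophage and neutrophil markers were 0.67 and 0.76. Their part in these values was not tested. Ccl5, stored ready-made in NK and memory T cells, stood at 197.56 FPKM in Adv-IL-17B and 81.31 FPKM in Adv-EV. Which lung cells this Ccl5 RNA came from was not tested. Ccl3 stood at 50.92 FPKM in Adv-IL-17B and 8.51 FPKM in Adv-EV, and Ccl4 at 45.28 FPKM in Adv-IL-17B and 11.63 FPKM in Adv-EV. The surface receptor genes Slamf7 (13.68 FPKM in Adv-IL-17B and 6 FPKM in Adv-EV) and Cd96 (2.52 FPKM in Adv-IL-17B and 1.06 FPKM in Adv-EV) were also past 2-fold. The least abundant of the 7 was Crtam, which encodes a receptor of activated NK and CD8 T cells, at 0.74 FPKM in Adv-IL-17B and 0.28 FPKM in Adv-EV. Ifng, the cytokine gene most tied to NK cell activity, stood at 0.45 FPKM in Adv-IL-17B and 0.75 FPKM in Adv-EV on about 3 and 5 fragments, too few to show a difference. Of 12 transcription factors of NK cells 1 was higher and 0 lower, and the median log2 ratio was 0.32. The higher gene was Nfil3, at 13.24 FPKM in Adv-IL-17B and 4.72 FPKM in Adv-EV. The most abundant, Id2, stood at 61.29 FPKM in Adv-IL-17B and 50.46 FPKM in Adv-EV. On this list the counting interval lay above 1 for 5 and below 1 for 1, Gata3, at 1.86 FPKM in Adv-IL-17B and 3.34 FPKM in Adv-EV.

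T cells are the other lymphocytes that carry granzymes, and their markers went both ways. The 15 T cell markers had 0 genes past 2-fold, a median log2 ratio of -0.02 and sums of 104 FPKM in Adv-IL-17B and 101.8 FPKM in Adv-EV, and none was at 0. Their log2 ratios ran from -0.55 to 0.74, and the counting interval lay above 1 for 3 (Cd5, Cd8a and Ccr7) and below 1 for 1 (Cd2). Cd2, the most abundant, stood at 16.69 FPKM in Adv-IL-17B and 22.32 FPKM in Adv-EV. Cd3e, a chain of the T cell receptor complex, stood at 8.93 FPKM in Adv-IL-17B and 7.19 FPKM in Adv-EV. Cd8a was at 5.3 FPKM in Adv-IL-17B and 3.42 FPKM in Adv-EV, Cd8b1 at 10.96 FPKM in Adv-IL-17B and 11.08 FPKM in Adv-EV, and Cd4 at 3.74 FPKM in Adv-IL-17B and 4.16 FPKM in Adv-EV. By comparison the 6 pan-leukocyte genes all had higher values in Adv-IL-17B, and their median log2 ratio was 0.68, with Cd52 at 359.05 FPKM in Adv-IL-17B and 226.92 FPKM in Adv-EV and Ptprc, the CD45 gene, at 43.61 FPKM in Adv-IL-17B and 27.92 FPKM in Adv-EV. The NK markers, with a summed ratio of 1.12, lay between the T cell markers at 1.02 and the pan-leukocyte genes at 1.58. Most of the NK sum is Gzma, which cytotoxic T cells also express. Ncr1, Eomes, Tbx21 and Klrd1 alone had a summed ratio of 1.22, and most of that sum is Klrd1 (9.97 FPKM in Adv-IL-17B and 8.51 FPKM in Adv-EV). That set leaves out Klrb1c (ratio 1.51) and Prf1 (ratio 1.05). The differences between these ratios were not tested. The part of leukocyte number in the member values was not tested.

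Mast cells hold other granule proteases. Of their protease genes, Cma1 stood at 1.34 FPKM in Adv-IL-17B and 1.01 FPKM in Adv-EV, on about 8 and 6 fragments. Cpa3 stood at 0.12 FPKM in Adv-IL-17B and 0.5 FPKM in Adv-EV, and Mcpt4 was listed at 0 in Adv-IL-17B and at 0.37 FPKM in Adv-EV. Among the 5 measured genes of the mast cell and basophil list 0 were past 2-fold, with 2 ratios above equality and 3 below. The median log2 ratio was -0.37, which is the value of Mcpt8 on about 3 and 4 fragments. The most abundant, Hdc, the gene of the histamine-forming enzyme, stood at 45.39 FPKM in Adv-IL-17B and 41.87 FPKM in Adv-EV. Intervals lay below 1 for Gata2 (27.77 FPKM in Adv-IL-17B and 41.77 FPKM in Adv-EV) and Kit (30.04 FPKM in Adv-IL-17B and 39.22 FPKM in Adv-EV). Cpa3, Mcpt4, Ms4a2 and Fcer1a of the same list were under the filter. Which lung cells the Gata2 and Kit RNA came from was not tested. Lung tissue genes were abundant in both libraries, with Scgb1a1, the secretoglobin gene of club cells, at 26446 FPKM in Adv-IL-17B and 37109.12 FPKM in Adv-EV. The 8 endothelium markers had a median log2 ratio of -0.35 and the 10 epithelium markers one of -0.20, with 0 past 2-fold on either list. Cldn5, an endothelial junction gene and the most abundant of its list, stood at 357.38 FPKM in Adv-IL-17B and 366.49 FPKM in Adv-EV. It was the only endothelium marker whose interval included equal levels, and the intervals of the other 7 lay below 1.

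**Figure D4:**
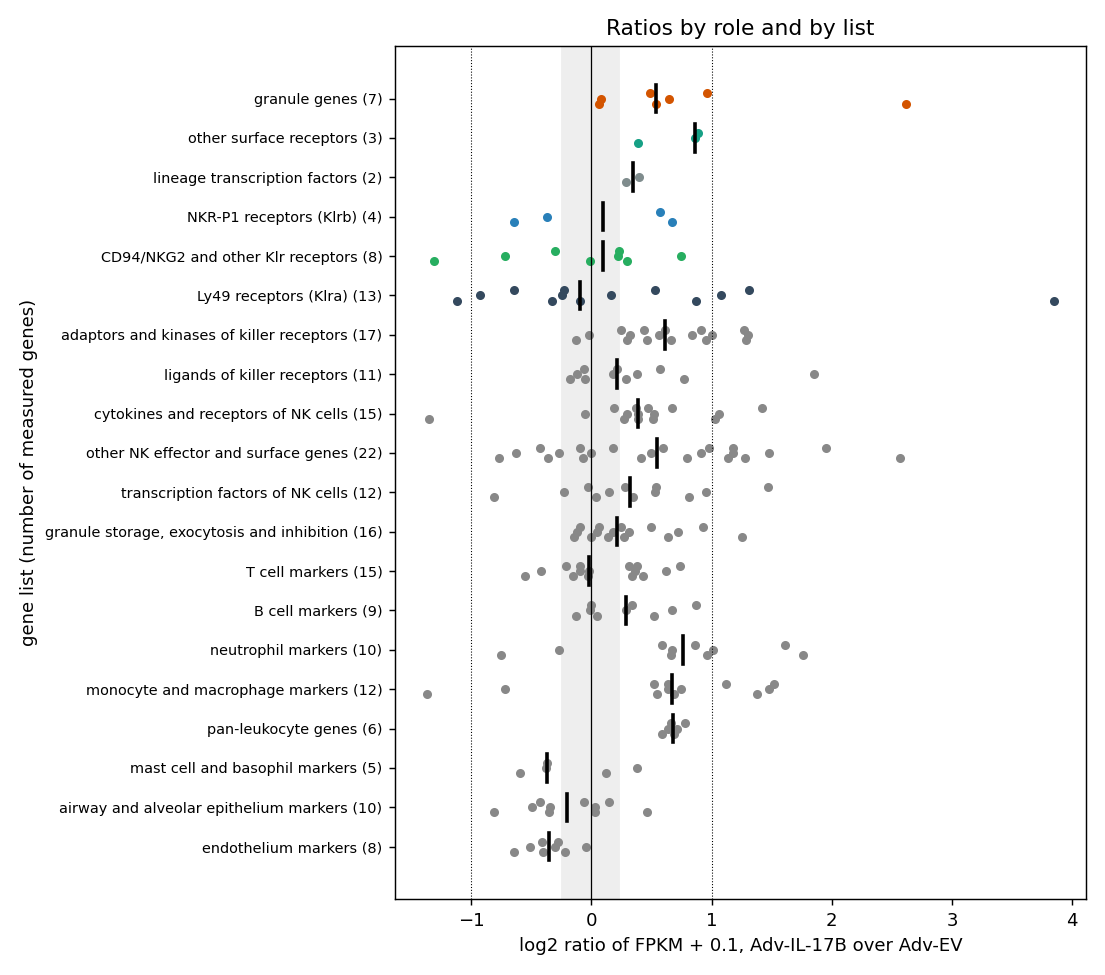
Log2 ratio of FPKM + 0.1, Adv-IL-17B over Adv-EV, for each measured gene (points) by role of the members (coloured) and by other gene list (grey), with medians as black bars, the interquartile range of all measured genes (-0.24 to 0.23) in grey and dotted lines at 2-fold. Granule genes lie to the right of 0, the Ly49 genes spread from -1.12 to 3.85 (Klra10, listed at 0 in Adv-EV), and T cell markers centre on 0 while myeloid and pan-leukocyte genes centre near 0.7.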

How the data were processed

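The authors deposited FPKM values in 1 column per library, with 2 decimals, per the file headers. Bowtie2, HISAT and the mouse build mm10 are named in the submitters' processing notes. No source used here states how fragments were assigned and normalized or how strand and reads with several positions were treated, so values of near-identical genes are uncertain.

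Libraries were grouped by their titles, 1 per group, and without replicates no test was possible. Log2 ratios used a pseudocount of 0.1, which understates differences of low genes, and printed ratios are plain ratios of FPKM. The filter kept means of 0.5 FPKM or more, and genes past 2-fold were counted. Depth came from the steps in low values of genes with 1 transcript of 500 to 3000 bp, using GENCODE M21 lengths for 99.2% of genes. A fragment in 1 kb was worth 0.181 (Adv-IL-17B) and 0.182 (Adv-EV) FPKM, and 81.5% and 81.7% of those values lay within 0.2 of a whole number. Steps from 0.15 to 0.25 were searched. A 0 allows up to 3 fragments. The longest transcript was used where a gene had more than one. The size rule, step search and intervals were tested on simulated data that held counting error only. Changes were planted there only in genes more abundant than most members, so the size rule was not tested at the members' depth.

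Shared sequence was counted as 50-base words of a member's transcript found in transcripts of another GENCODE gene. All members are named, and of 14 other lists the genes past 2-fold (at most the 6 most abundant), the most abundant gene and 12 preset genes. Others named were chosen after their values were seen. Members and lists were chosen with earlier results of these data known. Analyses used Python 3.11.15, numpy 2.4.6, pandas 2.3.3 and scipy 1.17.1. Alternatives covered pseudocount, filter, scaling, size rule, genes at 0, depth and the Klra genes.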

Additional observations from a re-analysis of the deposited data

How the results depend on the processing

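The summed ratio of 1.35 stayed between 1.30 and 1.35 under the other scalings (values rescaled to equal sums, centred on the median or scaled by the upper quartile) and was 1.33 without the Klra genes. The median log2 ratio of the measured members, 0.29, stayed between 0.21 and 0.34 under the pseudocounts of 1 and 0.01, no filter, the other scalings, floors for genes at 0 and without the Klra genes. It was 0.57 with a filter of at least 2 FPKM and 0.40 for members of at least 20 estimated fragments, where fewer genes entered. Of the 4 members at least 2-fold higher, 2 (Klra2 and Klra4) were left with the filter of 2 FPKM or with at least 20 fragments, 1 (Gzmc) without the Klra genes, and 11 passed a rule of 1.5-fold. Against these counts, 2.66%, 2.74%, 3.93% and 9.44% of all genes were higher under the same settings. With a pseudocount of 1 Klra4 was no longer past 2-fold, and with floors Klra10 was not. Of the 2 members lower, 0 were left with a pseudocount of 1, the filter of 2 FPKM or at least 20 fragments, 1 (Klrc2) without the Klra genes, 4 with no filter and 6 at 1.5-fold. Of all genes 1.17%, 1.31%, 1.47%, 2.68%, 5.64% and 8.2% were lower under these settings in turn. Single low members moved more: the log2 ratio of Klra10 was 1.23 with a pseudocount of 1, 7.08 with 0.01 and 0.92 at its floor, against 3.85, and that of Klra23 was -0.44 with a pseudocount of 1, against -1.12. The added settings (floors, at least 20 fragments, without the Klra genes) were chosen after seeing the data. No paired analysis was possible because each group has 1 library, and leaving out a library would leave no comparison. Most measured Klr genes had intervals that included equal levels. At this depth equality and a difference within those bounds could not be separated.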
